A study of Mus musculus with 6 samples.

Results

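The levels of 40 genes of proliferation and the cell cycle were followed in splenic CD4+ T cells of mice given angiotensin II. The genes were taken from a list of names. All 40 were found among the 39171 gene identifiers of the 6 libraries, and 38 of them were tested after a filter on low levels that left 11842 genes. The AngII group was 3 premenopausal, and so female, C57BL/6 mice that received angiotensin II at 800 ng/kg/min from an osmotic minipump for 14 days, starting at 10 weeks of age. The Control group was 3 untreated mice of the same sex, strain and age. The labels name no sham pump for the Control mice and no allele or transgene for either group. CD4+ T cells were isolated from each spleen with a magnetic kit, and 1 RNA-seq library was made for each mouse.

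Angiotensin II is a peptide hormone that constricts vessels and promotes salt retention, and infusing it is a standard mouse model of hypertension in which T cells have been studied. Most splenic CD4+ T cells are resting cells held outside the cycle. On activation, the D and E cyclins with their kinases inactivate the retinoblastoma protein and free the E2F factors. These factors turn on the genes that license origins, copy DNA and make nucleotides. Genes of the later phases follow, and they encode cyclins A and B, the mitotic kinases, the kinesins and the anaphase-promoting complex that ends mitosis. In a bulk library the level of such a gene mixes the number of cycling cells with the transcript content of each, so fewer cells of a type and less RNA per cell cannot be told apart.

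The levels are in FPKM, fragments per kilobase of transcript scaled to the mapped fragments of the library, so they may be compared between genes. The summed FPKM was 613674 to 717286 per library, and 11438 to 11757 genes reached 1 FPKM. Low values came in steps of whole fragments, which put the depth at roughly 31300000 to 35000000 fragments per library. At that depth the 38 genes tested had about 127 to 5667 fragments in the library where each was lowest, an estimate from the longest annotated transcript. The labelled cell type was checked on its markers. Cd4, the coreceptor that defines the cells, had 238, 214 and 232 FPKM in AngII libraries 1, 2 and 3, against 254, 229 and 203 FPKM in Control libraries 1, 2 and 3. Cd3e, a CD3 chain that signals for the T cell receptor, had 434 to 508 FPKM in AngII libraries and 466 to 536 FPKM in Control libraries. Cd8a, the coreceptor of the other T cell lineage, stayed at or below 1.67 FPKM in AngII libraries and 1.01 FPKM in Control libraries. Cd8b1, for its other chain, had 9.33 to 12.0 FPKM in AngII libraries and 10.1 to 10.7 FPKM in Control libraries. Nkg7, a gene of cytotoxic cells, had 65.6 to 76.8 FPKM in AngII libraries and 66.2 to 100.2 FPKM in Control libraries. The libraries also held Ighm, a B cell marker, at 550 to 908 FPKM in AngII libraries and 620 to 1042 FPKM in Control libraries. Correlations of log2 values between libraries ran from 0.914 to 0.937, and no pair of libraries held the same values.

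The genes of the helicase and the clamp were at higher levels than most of the mitotic genes. The highest mean over the 6 libraries was that of Pcna, the sliding clamp of DNA polymerase, at 132.7 FPKM. It was followed by Stmn1, a tubulin-binding protein of the spindle, at 57.1 FPKM and by Mcm6, a subunit of the replicative helicase, at 40.4 FPKM. The ranges of these 3 genes over the libraries did not meet those of their neighbours in the order of levels. From Mcm4 at 31.4 FPKM down to Bub1, a spindle checkpoint kinase, at 1.55 FPKM, neighbours in the order overlapped. The kinetochore genes Cenpe and Cenpf lay under the filter of a mean of 1 FPKM, at 0.965 and 0.557 FPKM, and were not tested.

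**Figure D1:**
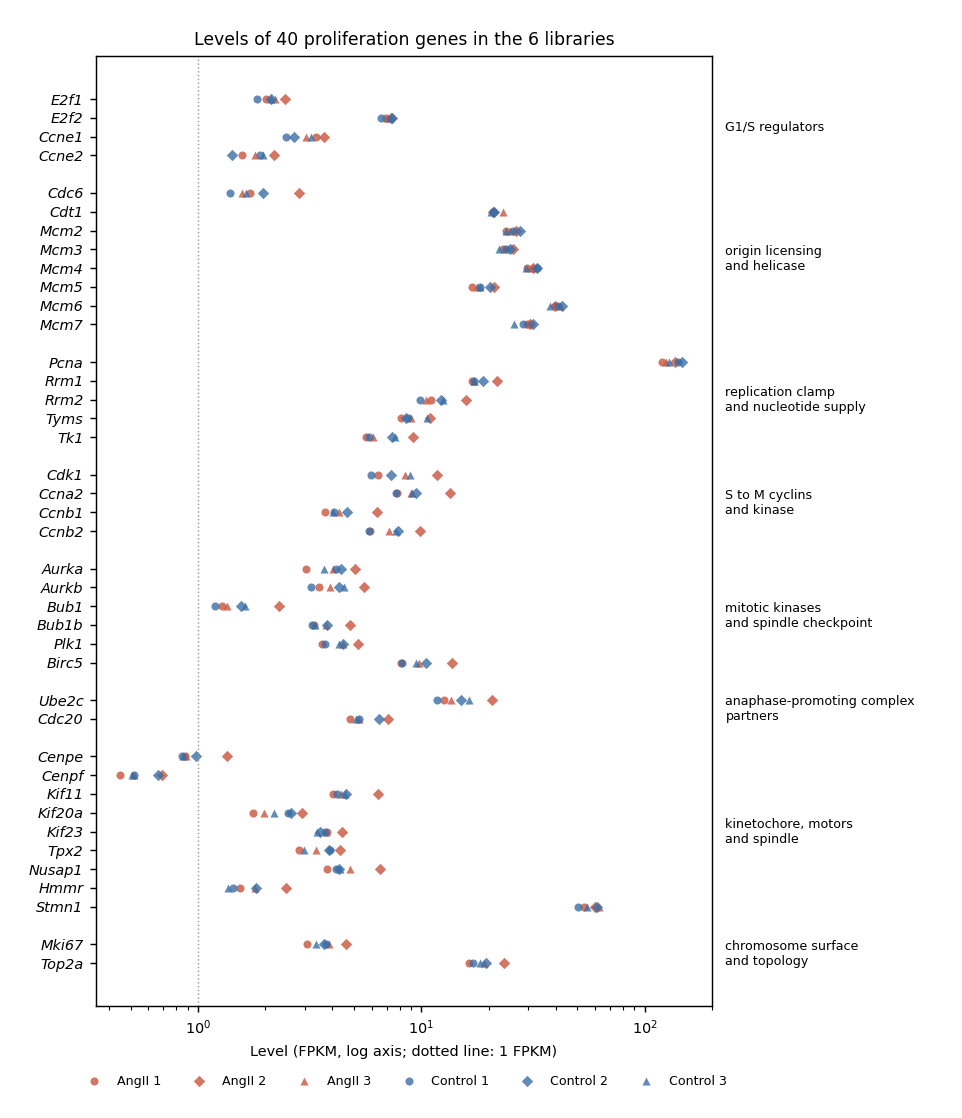
Level of each of the 40 genes (FPKM, logarithmic axis) in the 3 AngII and 3 Control libraries, 1 symbol per library, arranged by the role of the protein. The red diamond of AngII library 2 is the rightmost symbol in most rows from Rrm1 down, while the rows of the MCM genes are tight.

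No gene of the 40 passed the test between AngII and Control. With limma on log2(FPKM + 1) and Benjamini-Hochberg adjustment over all 11842 genes, 0 of 38 were called, with a smallest adjusted p of 0.99989. The same fit called 4 of all genes tested, each lower in AngII, which is 0.0338% of them. At an unadjusted p below 0.05 the count was also 0 of 38, where 1.76% of all genes tested lay below it. The mean log2 level was higher in AngII for 29 of 38 genes, where 48.0% of all genes tested were higher. The median log2 fold change of the 38 genes was 0.08, against a median near 0 (-0.0040) over all genes tested. The 95% confidence intervals extended a median of 0.34 to either side on the log2 scale, wider than the 0.26 over all genes tested. No interval of the 38 genes reached below -0.50 or above 0.77 on that scale. On the log2(FPKM + 1) scale the change of a gene near 1 FPKM is understated.

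**Figure D2:**
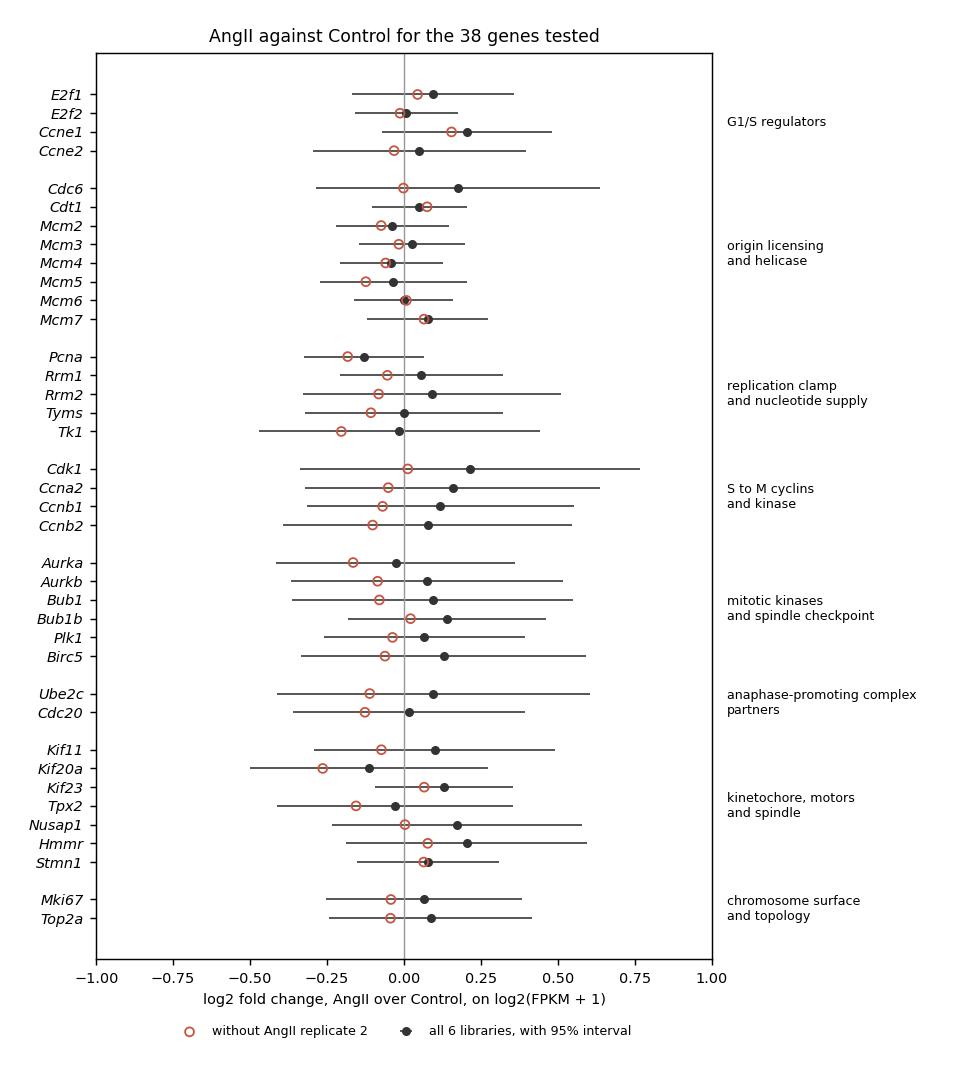
Log2 fold change of AngII over Control for the 38 genes tested, on the log2(FPKM + 1) scale. Filled points with bars are the values over all 6 libraries with 95% confidence intervals, and open circles are the values without AngII replicate 2. Every bar crosses 0, and for most genes the open circle lies to the left of the filled point.

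Among the G1/S regulators, E2f1 encodes an activating E2F factor. It had 2.02, 2.45 and 2.22 FPKM in AngII libraries 1, 2 and 3, against 1.83, 2.13 and 2.12 FPKM in Control libraries 1, 2 and 3. The groups overlapped, with a log2 fold change of 0.09 ± 0.11 (SE, n = 3 per group). E2f2, another activating E2F factor and the more abundant of the pair, had 6.93, 7.33 and 7.05 FPKM in AngII libraries and 6.63, 7.37 and 7.22 FPKM in Control libraries, and its fold change was close to 0 (0.0069 ± 0.068). Ccne1 (chr7:38097984-38107534, minus strand, GRCm38) encodes cyclin E1. It had 3.37, 3.67 and 3.05 FPKM in AngII libraries, against 2.48, 2.69 and 3.21 FPKM in Control libraries. Only Control library 3 reached into the AngII range. Its log2 fold change of 0.20 ± 0.11 had the smallest unadjusted p of all 38 genes (limma adjusted p = 0.99989). Ccne2, for cyclin E2, ranged from 1.57 to 2.19 FPKM in AngII libraries and from 1.42 to 1.96 FPKM in Control libraries.

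The genes that unwind origins varied little between libraries. Mcm6 had 39.7, 39.9 and 41.6 FPKM in AngII libraries 1, 2 and 3, against 41.0, 42.9 and 37.6 FPKM in Control libraries 1, 2 and 3, with a log2 fold change of -0.0016 ± 0.066. Mcm7 had 29.6, 30.7 and 30.2 FPKM in AngII libraries and 28.5, 31.5 and 25.9 FPKM in Control libraries, a log2 fold change of 0.08 ± 0.08. For the 6 helicase genes Mcm2 to Mcm7 the highest library held 1.12 to 1.25 times the level of the lowest. The median log2 fold change of the 8 licensing and helicase genes was 0.01. Cdt1, which loads the helicase together with Cdc6, had 20.9 to 23.3 FPKM in AngII libraries and 20.6 to 21.2 FPKM in Control libraries. Cdc6 behaved otherwise, with 1.72, 2.82 and 1.57 FPKM in AngII libraries and 1.39, 1.95 and 1.64 FPKM in Control libraries. Its high value was that of AngII library 2, and the other AngII libraries lay inside the Control range.

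The clamp gene Pcna (chr2:132249162-132253314, minus strand, GRCm38) had 119, 136 and 124 FPKM in AngII libraries 1, 2 and 3, against 141, 147 and 129 FPKM in Control libraries 1, 2 and 3. AngII library 2 overlapped the Control range and the other AngII libraries lay below it. Its log2 fold change was -0.13 ± 0.08 (limma adjusted p = 0.99989), the lowest of the 38 genes. Rrm1 and Rrm2 encode the subunits of ribonucleotide reductase, which makes deoxynucleotides. Rrm1 ranged from 16.9 to 21.8 FPKM in AngII libraries and from 17.2 to 18.9 FPKM in Control libraries. Rrm2 ranged from 10.5 to 15.9 FPKM in AngII libraries and from 9.85 to 12.5 FPKM in Control libraries. Tyms, the thymidylate synthase gene, ranged from 8.07 to 10.9 FPKM in AngII libraries and from 8.51 to 10.6 FPKM in Control libraries. Tk1, for the thymidine kinase of S phase, ranged from 5.65 to 9.15 FPKM in AngII libraries and from 5.82 to 7.59 FPKM in Control libraries. In each of these 4 nucleotide genes the top value was that of AngII library 2 and the groups overlapped.

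The cyclins and the kinase that carry cells from S phase into mitosis had the widest confidence intervals of the 8 groups of roles, with a median of 0.47 to either side on the log2 scale. Cdk1, the kinase that starts mitosis, had 6.38, 11.7 and 8.48 FPKM in AngII libraries 1, 2 and 3, against 5.97, 7.31 and 8.85 FPKM in Control libraries 1, 2 and 3. AngII library 2 stood above the rest and the other AngII libraries lay within the Control range. The log2 fold change was 0.21 ± 0.23 (limma adjusted p = 0.99989), the highest of the 38 genes. Ccna2, for cyclin A2, had 7.76, 13.5 and 9.01 FPKM in AngII libraries, against 7.69, 9.45 and 9.06 FPKM in Control libraries, and its log2 fold change was 0.16 ± 0.20. Ccnb1 and Ccnb2 encode the B-type cyclins. Ccnb1 ranged from 3.70 to 6.36 FPKM in AngII libraries and from 4.01 to 4.67 FPKM in Control libraries. Ccnb2 ranged from 5.92 to 9.91 FPKM in AngII libraries and from 5.85 to 7.82 FPKM in Control libraries. The mean was higher in AngII for all 4 genes of this role, and their median log2 fold change was 0.14.

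The mitotic kinases and the checkpoint genes also had their top values in AngII library 2. Birc5 encodes survivin, a subunit of the chromosomal passenger complex. It had 8.15, 13.8 and 9.77 FPKM in AngII libraries 1, 2 and 3, against 8.22, 10.5 and 9.46 FPKM in Control libraries 1, 2 and 3, with a log2 fold change of 0.13 ± 0.19. Bub1b, for the checkpoint protein BubR1, had 3.31, 4.79 and 3.73 FPKM in AngII libraries, against 3.24, 3.77 and 3.36 FPKM in Control libraries, with a log2 fold change of 0.14 ± 0.13. Aurka, Aurkb and Plk1, which encode mitotic kinases, and Bub1 each had their top value in AngII library 2, at 5.02, 5.54, 5.22 and 2.32 FPKM in that order. The Control libraries reached at most 4.39 FPKM for Aurka, 4.52 FPKM for Aurkb, 4.44 FPKM for Plk1 and 1.63 FPKM for Bub1.

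Both partners of the anaphase-promoting complex showed the same picture. Ube2c, its ubiquitin-conjugating enzyme, had 12.6, 20.7 and 13.6 FPKM in AngII libraries 1, 2 and 3, against 11.7, 15.0 and 16.4 FPKM in Control libraries 1, 2 and 3, with a log2 fold change of 0.09 ± 0.21. Its AngII libraries 1 and 3 lay below Control libraries 2 and 3. Cdc20, its activator, ranged from 4.79 to 7.10 FPKM in AngII libraries and from 5.07 to 6.45 FPKM in Control libraries.

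Among the kinetochore, motor and spindle genes, Kif23 (chr9:61915905-61946774, minus strand, GRCm38), for a kinesin of cytokinesis, had groups that did not overlap. It had 3.77, 4.43 and 3.73 FPKM in AngII libraries 1, 2 and 3, against 3.69, 3.53 and 3.40 FPKM in Control libraries 1, 2 and 3. The gap between AngII library 3 and Control library 1 was narrow, and the test was not passed at a log2 fold change of 0.13 ± 0.09 (limma adjusted p = 0.99989). So 1 of 38 genes was apart and higher in AngII, where 2.36% of all genes tested were, and 0 of 38 were apart and lower, where 3.48% were. Stmn1 had 53.6, 59.6 and 62.7 FPKM in AngII libraries, against 50.5, 61.0 and 55.3 FPKM in Control libraries, a log2 fold change of 0.08 ± 0.09. It was the only gene of the 21 in the S to M and mitotic roles whose top value was not in AngII library 2. Kif11, Kif20a, Tpx2, Nusap1 and Hmmr, which encode kinesins and spindle proteins, had tops of 6.42, 2.92, 4.33, 6.50 and 2.48 FPKM in AngII library 2, in that order. Their highest Control values were 4.62, 2.61, 3.90, 4.34 and 1.81 FPKM in the same order. Below the filter, Cenpe ranged from 0.872 to 1.34 FPKM in AngII libraries and from 0.845 to 0.984 FPKM in Control libraries. Cenpf ranged from 0.446 to 0.692 FPKM in AngII libraries and from 0.506 to 0.663 FPKM in Control libraries.

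Mki67 (chr7:135689784-135716361, minus strand, GRCm38) encodes the Ki-67 protein that coats mitotic chromosomes and is the usual mark of cycling cells. It had 3.08, 4.58 and 3.87 FPKM in AngII libraries 1, 2 and 3, against 3.73, 3.67 and 3.39 FPKM in Control libraries 1, 2 and 3. AngII libraries held both its lowest and its highest value, and the log2 fold change was 0.06 ± 0.13 (limma adjusted p = 0.99989). Top2a, for the topoisomerase that untangles chromosomes, had 16.3, 23.5 and 19.2 FPKM in AngII libraries, against 17.0, 19.5 and 18.4 FPKM in Control libraries, a log2 fold change of 0.09 ± 0.13.

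Most of these genes had their top value in the same library, one of the AngII group. AngII library 2 held the highest level of the 6 libraries for 30 of 38 genes (78.9%), where it did so for 22.0% of all genes tested. It held the lowest level for 0 of 38, where it did so for 30.4% of all genes tested. The low end was shared, with 17 of 38 genes lowest in AngII library 1 and 13 of 38 lowest in Control library 1, where those shares were 22.8% and 16.4% of all genes tested. AngII library 2 lay at least 1.2 times above every other library for 16 of 38 genes (42.1%), where it did so for 5.55% of all genes tested. The step of 1.2 was chosen after the values had been seen.

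The share was larger among genes of the later phases. Of the 21 S to M, mitotic and spindle genes tested, 20 were highest in AngII library 2 and 13 lay at least 1.2 times above every other library. Of the 17 G1/S, licensing, replication and nucleotide genes, 10 were highest there and 3 stood clear by that step. The median ratio of AngII library 2 to the highest other library was 1.26 for the later genes and 1.03 for the earlier genes. The 6 MCM genes had ratios of 0.930 to 1.04, and 4 of them were highest in Control library 2. In all, 6 of 38 genes were highest in Control library 2, where 18.4% of all genes tested were. These are counts over genes that share libraries, so they describe the libraries and are not a test of the treatment.

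**Figure D3:**
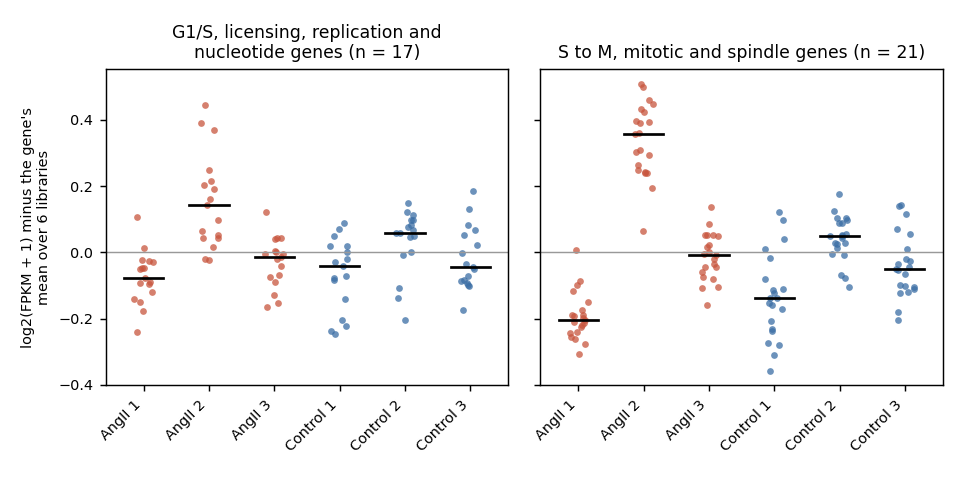
Deviation of each gene from its own mean over the 6 libraries, on the log2(FPKM + 1) scale, for the 17 earlier genes (left panel) and the 21 later genes (right panel). Each point is 1 gene and each black bar the median of a library. In the right panel the median of AngII library 2 is 0.36 and that of AngII library 1 is -0.20, while the 3 Control medians lie between -0.14 and 0.05.

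In summed level the 21 later genes came to 155, 221 and 181 FPKM in AngII libraries 1, 2 and 3, against 155.5, 184 and 174 FPKM in Control libraries 1, 2 and 3. The 17 earlier genes came to 361, 409 and 376 FPKM in AngII libraries, against 388, 411 and 371 FPKM in Control libraries. The later sum in AngII library 2 lay above all others, and the earlier sum there was matched by Control library 2. Pcna and the 6 MCM genes made up most of the earlier sum. They came to 136 and 175.5 FPKM in AngII library 2, against 147 and 180.5 FPKM in Control library 2. By gene, the median deviation of the 17 earlier genes was 0.14 in AngII library 2 and 0.06 in Control library 2. Stmn1 was the largest part of the later sum.

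The direction of the median turned with 1 library. Without AngII replicate 2, the mean was higher in AngII for 11 of 38 genes and lower for 27, and the median log2 fold change was -0.05, with 0 genes past the threshold. The median of the 21 later genes was 0.09 with all libraries and -0.06 without that library. The median of the 17 earlier genes was 0.03 with all libraries and -0.03 without it. Leaving out AngII replicate 1 instead put the mean of 34 of 38 genes higher in AngII, with a median of 0.15. In the fit without AngII replicate 2, Mcm5, Pcna and Kif20a had AngII libraries all below the Control libraries, and Kif23 had them all above. With 2 libraries against 3, 27.7% of all genes tested had groups that did not overlap in either direction. The fit with limma array weights, which gives less weight to libraries that stand apart, had 9 genes higher and 29 lower, a median of -0.06 and a smallest adjusted p of 0.28 for the 38 genes. In that fit 3 of 38 had an unadjusted limma p below 0.05, each lower in AngII. They were Pcna, Kif20a and Mcm5, with log2 fold changes of -0.22, -0.28 and -0.16. The share of all genes tested below that p was not taken for this fit.

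**Figure D4:**
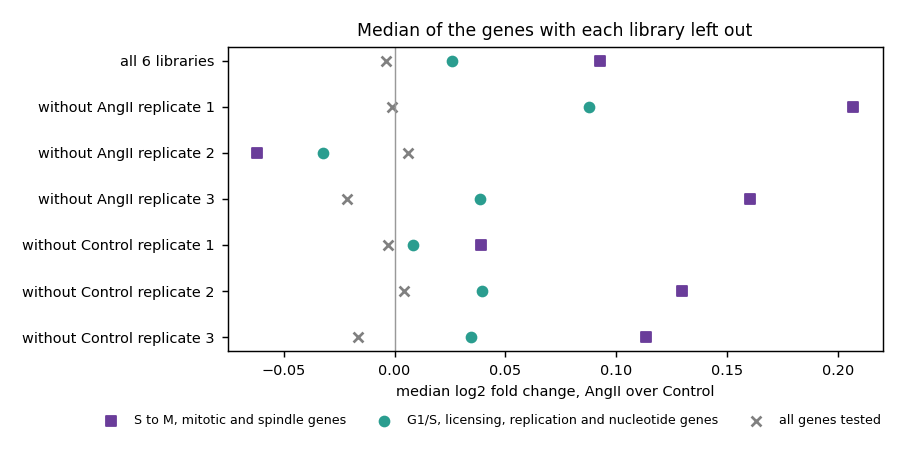
Median log2 fold change of AngII over Control for the 21 later genes (squares), the 17 earlier genes (circles) and all genes tested (crosses), with all 6 libraries and with each library left out in turn. The squares and circles lie right of 0 in every row except the row without AngII replicate 2, where they are at -0.06 and -0.03.

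The later genes share sequence features at their starts. In the RefSeq promoter table of build GRCm38.p6, which spans 250 bases before to 50 after each start, 33 of the 40 genes had an entry, with 35 promoters in all. Both strands were searched for 3 kinds of motif. The first was the E2F site, as TTTCCCGC, TTTCGCGC, TTTGCCGC or TTTGGCGC. The second was the cell cycle genes homology region (CHR), the element of late cell cycle genes bound by the DREAM and B-MYB complexes, as TTTGAA or TTTAAA. The last was CCAAT, the site of the factor NF-Y. A CHR together with a CCAAT stood in 15 of 18 promoters of the later genes (83.3%), here with Cenpe and Cenpf, which were below the filter and held both, and in 4 of 17 promoters of the earlier genes (23.5%), where 10.7% of the 32851 promoters in the table held both. An E2F match stood in 1 of 18 promoters of the later genes (5.56%) and in 7 of 17 of the earlier genes (41.2%), where 2.27% of all promoters held one. The CHR words are short and stood by themselves in 27.6% of all promoters, and CCAAT in 37.4%, so a match is a description of letters and not a bound site.

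Promoters of 3 later genes and of 2 helicase genes are shown as examples of these letters. They were picked after the values had been seen, so no relation between motif and level is read from them. Capitals mark every match to the E2F, CHR and CCAAT letters on either strand, and overlapping matches run together. The sequences are written in the direction of the gene. Cdk1 is at chr10:69352863-69353162 (minus strand), Ccnb2 at chr9:70421505-70421804 (minus strand), Ube2c at chr2:164769679-164769978 (plus strand), Mcm3 at chr1:20820263-20820562 (minus strand) and Mcm6 at chr1:128359656-128359955 (minus strand).
Cdk1: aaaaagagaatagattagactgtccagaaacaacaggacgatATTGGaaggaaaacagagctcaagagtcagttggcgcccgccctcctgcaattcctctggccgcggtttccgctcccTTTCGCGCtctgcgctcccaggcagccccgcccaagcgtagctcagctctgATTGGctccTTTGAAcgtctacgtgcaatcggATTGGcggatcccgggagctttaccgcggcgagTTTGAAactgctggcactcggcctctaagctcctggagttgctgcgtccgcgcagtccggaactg
Ccnb2: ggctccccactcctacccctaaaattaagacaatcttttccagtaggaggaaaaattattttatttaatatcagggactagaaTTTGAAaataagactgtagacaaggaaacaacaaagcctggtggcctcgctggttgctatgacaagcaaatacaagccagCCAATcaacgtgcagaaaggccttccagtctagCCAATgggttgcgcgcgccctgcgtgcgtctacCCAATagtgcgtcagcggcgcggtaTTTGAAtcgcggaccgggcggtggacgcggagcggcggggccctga
Ube2c: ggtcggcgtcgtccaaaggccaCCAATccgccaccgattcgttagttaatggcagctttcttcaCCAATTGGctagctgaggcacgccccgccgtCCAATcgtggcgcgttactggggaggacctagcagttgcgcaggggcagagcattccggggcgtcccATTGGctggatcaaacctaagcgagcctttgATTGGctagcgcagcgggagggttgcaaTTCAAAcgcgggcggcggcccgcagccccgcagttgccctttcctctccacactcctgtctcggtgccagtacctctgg
Mcm3: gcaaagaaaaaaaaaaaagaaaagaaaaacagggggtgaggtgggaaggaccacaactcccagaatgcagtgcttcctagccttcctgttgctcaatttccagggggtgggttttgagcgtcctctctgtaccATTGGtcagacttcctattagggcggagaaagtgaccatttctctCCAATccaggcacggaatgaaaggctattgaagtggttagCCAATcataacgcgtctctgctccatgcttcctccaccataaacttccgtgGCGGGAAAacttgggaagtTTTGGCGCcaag
Mcm6: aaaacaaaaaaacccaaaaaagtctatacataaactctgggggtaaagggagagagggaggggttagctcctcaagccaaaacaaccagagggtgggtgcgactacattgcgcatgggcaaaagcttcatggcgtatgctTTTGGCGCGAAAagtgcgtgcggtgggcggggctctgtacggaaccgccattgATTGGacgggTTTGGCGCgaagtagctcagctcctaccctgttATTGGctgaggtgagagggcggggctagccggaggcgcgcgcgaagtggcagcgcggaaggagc
Cdk1 holds 1 E2F match, 2 CHR matches and 3 CCAAT matches. Ccnb2 holds 2 CHR and 3 CCAAT matches and no E2F match. Ube2c holds 1 CHR and 6 CCAAT matches, of which a pair overlap. Mcm3 holds 2 E2F and 3 CCAAT matches, Mcm6 holds 3 E2F and 2 CCAAT matches, and neither holds a CHR match. Whether the letters go with the level in AngII library 2 was not tested. Cdk1 holds both E2F and CHR matches. Cdc6 holds an E2F match and no CHR match. Its ratio of AngII library 2 to the highest other library was the highest of the 38 genes, at 1.45. Mcm6, also with E2F matches and no CHR match, had a ratio of 0.930.

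Markers of other cells also moved between the libraries, and AngII library 2 was highest for some of them. The 13 macrophage and monocyte markers summed to 1629, 3129 and 1611 FPKM in AngII libraries 1, 2 and 3, against 1302, 1787 and 2266 FPKM in Control libraries 1, 2 and 3. Of these 13, 9 were highest in AngII library 2, where 22.0% of all genes tested were, among them Hmox1 at 988 FPKM there. Adgre1 and Ly6c2 were highest in Control library 2, and Ccr2 and Itgam in Control library 3. The 16 markers of granulocytes and their precursors summed to 39.1, 109 and 97.6 FPKM in AngII libraries, against 16.5, 22.1 and 66.1 FPKM in Control libraries, and of the 12 tested 5 were highest in AngII library 2 and 6 in AngII library 3. The 5 in AngII library 2 were Mpo, Elane, Prtn3 and Ctsg, of granulocyte precursors, and Csf3r. Csf3r had 3.00 FPKM there against 2.93 FPKM in Control library 3. The 6 in AngII library 3 were S100a8, S100a9, Ngp, Camp, Lcn2 and Retnlg, of later granulocytes. Retnlg had 5.75 FPKM there against 5.45 FPKM in Control library 3. Mmp9 was highest in Control library 2. Mpo, a granule enzyme of dividing myeloid precursors, had 6.55, 22.3 and 10.8 FPKM in AngII libraries, against 1.83, 3.27 and 9.39 FPKM in Control libraries. The 15 erythroid markers summed to 244, 617 and 867 FPKM in AngII libraries, against 387, 657 and 635 FPKM in Control libraries, so AngII library 2 lay in the middle of the range. Of the 13 tested, 8 were highest in AngII library 2, while Hba-a1, Hba-a2, Hbb-bs and Alas2 were highest in AngII library 3 and Hbb-bt in Control library 3. Klf1, a transcription factor of red cell precursors, had 2.75, 4.88 and 3.18 FPKM in AngII libraries, against 1.17, 3.22 and 3.98 FPKM in Control libraries. No marker of these lists was at 0 in every library, and their part in the levels of the cell cycle genes was not tested.

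Other lists did not have their top in AngII library 2. The 10 T helper markers summed to 2435, 2383 and 2571 FPKM in AngII libraries 1, 2 and 3, against 2758, 2714 and 2383 FPKM in Control libraries 1, 2 and 3. The 7 markers of germinal centre B cells, a dividing B cell type of the spleen, were lowest in AngII library 2 at 28.0 FPKM, against 30.5 to 35.4 FPKM in Control libraries. The sums for B cells, plasma cells, dendritic cells and megakaryocytes with platelets were highest in Control library 3, as was that for CD8 T, NK and innate-like T cells. Most of the B cell sum was Ighm, at 550, 908 and 704 FPKM in AngII libraries, against 620, 689 and 1042 FPKM in Control libraries. Cd79b, the next in level, had 12.7, 14.8 and 33.3 FPKM in AngII libraries, against 12.3, 16.3 and 33.9 FPKM in Control libraries. Of the 11 B cell markers, 10 were highest in Control library 3 and 1 in AngII library 3.

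**Figure D5:**
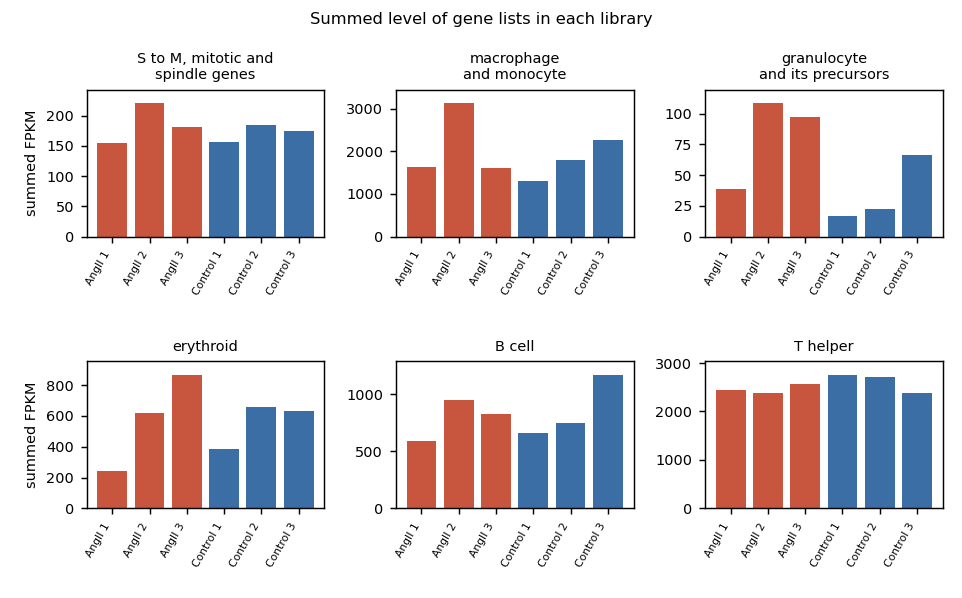
Summed FPKM in each library of the 21 later cell cycle genes and of 5 marker lists, with bars from 0 and AngII libraries left of Control libraries. AngII library 2 is the tallest bar for the later cell cycle genes (221 FPKM), the macrophage and monocyte list (3129 FPKM) and the granulocyte list (109 FPKM), and not for the erythroid, B cell and T helper lists. Most of each B cell bar is Ighm.

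The rest of the cell cycle pathway was read from 5 further lists. Of 55 other mitotic genes, 49 were tested and 0 passed. Their mean was higher in AngII for 34 and lower for 15, where 48.0% of all genes tested were higher. The median log2 fold change was 0.03. Of the 49, 33 were highest in AngII library 2, where 22.0% of all genes tested were. Racgap1, the partner of Kif23 in the centralspindlin complex of cytokinesis, had 10.2, 9.83 and 10.4 FPKM in AngII libraries 1, 2 and 3, against 9.45, 9.24 and 9.45 FPKM in Control libraries 1, 2 and 3. Its groups did not overlap, with a log2 fold change of 0.11 ± 0.06, and it had the smallest p of that list (limma adjusted p = 0.99989). Pttg1, for securin, had 40.6, 48.0 and 47.4 FPKM in AngII libraries, against 48.1, 50.7 and 49.8 FPKM in Control libraries. AngII lay below Control throughout, with a log2 fold change of -0.13 ± 0.08. H2afz, a histone variant gene and the most abundant of the list, had 153, 175 and 153 FPKM in AngII libraries, against 162, 164 and 168 FPKM in Control libraries (log2 fold change -0.04 ± 0.07).

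Of 41 other replication genes, 38 were tested and 0 passed. The mean was higher in AngII for 13 and lower for 25, where 48.0% of all genes tested were higher. The median log2 fold change was -0.02. AngII library 2 was highest for 14 and Control library 2 for 13, where those shares were 22.0% and 18.4% of all genes tested. Rpa3, a subunit of the protein that coats single-stranded DNA, had 22.6, 25.5 and 26.9 FPKM in AngII libraries 1, 2 and 3, against 26.6, 31.1 and 28.2 FPKM in Control libraries 1, 2 and 3 (log2 fold change -0.19 ± 0.09, limma adjusted p = 0.99989). Rpa1, of the same protein, ranged from 82.6 to 88.4 FPKM in AngII libraries and from 78.8 to 94.3 FPKM in Control libraries, with a log2 fold change of -0.05 ± 0.08. Rfc1, of the clamp loader, had 13.5, 13.8 and 13.8 FPKM in AngII libraries, against 13.0, 13.4 and 11.7 FPKM in Control libraries. Its groups did not overlap, by a small margin, and its log2 fold change was 0.10 ± 0.07.

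The genes that hold cells in G1 or release them from it ranged widely in level, and none passed the test. A list of 18 genes held D cyclins, G1 kinases, pocket proteins, further E2F factors with their partners Tfdp1 and Tfdp2, and Cdc25a. Of these, 17 were tested, 8 with a higher and 9 with a lower mean in AngII, where 48.0% of all genes tested were higher. Rb1, the retinoblastoma gene, had 25.0, 27.3 and 24.2 FPKM in AngII libraries 1, 2 and 3, against 29.8, 29.2 and 27.7 FPKM in Control libraries 1, 2 and 3. AngII lay below Control throughout, and at a log2 fold change of -0.18 ± 0.07 the gene did not pass (limma adjusted p = 0.99989). Ccnd3, the leading D cyclin gene here, had 182, 132 and 204 FPKM in AngII libraries, against 187, 182 and 181 FPKM in Control libraries, and Ccnd2 had 158, 93.5 and 145 FPKM in AngII libraries, against 155, 132 and 129.8 FPKM in Control libraries. Both were lowest in AngII library 2, where 30.4% of all genes tested were. Their log2 fold changes were -0.11 ± 0.16 for Ccnd3 and -0.10 ± 0.21 for Ccnd2. Ccnd1, the other D cyclin gene, was not lowest there. It had 6.04, 8.17 and 5.79 FPKM in AngII libraries, against 5.07, 6.44 and 9.37 FPKM in Control libraries. Cdk4, the kinase partner of the D cyclins, ranged from 63.1 to 67.2 FPKM in AngII libraries and from 65.5 to 75.2 FPKM in Control libraries (log2 fold change -0.12 ± 0.07). E2f4, the repressive E2F factor of resting cells, ranged from 37.6 to 43.2 FPKM in AngII libraries and from 39.1 to 42.7 FPKM in Control libraries (log2 fold change 0.01 ± 0.07).

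Of 7 CDK inhibitor genes, 4 were tested and 0 passed. Cdkn1b, for the inhibitor p27 of resting T cells, had 127, 117 and 129.5 FPKM in AngII libraries 1, 2 and 3, against 121, 121 and 117 FPKM in Control libraries 1, 2 and 3 (log2 fold change 0.06 ± 0.06). Cdkn2d ranged from 42.2 to 48.2 FPKM in AngII libraries and from 42.0 to 52.7 FPKM in Control libraries (log2 fold change -0.09 ± 0.10). Cdkn2c ranged from 7.16 to 9.26 FPKM in AngII libraries and from 6.88 to 8.26 FPKM in Control libraries (log2 fold change 0.07 ± 0.11). Cdkn1a, for the inhibitor p21, ranged from 1.68 to 3.51 FPKM in AngII libraries and from 2.01 to 3.15 FPKM in Control libraries (log2 fold change -0.06 ± 0.24). Of 16 T cell quiescence factors, 0 passed, 9 had a higher mean in AngII and 0 were highest in AngII library 2. Over all genes tested, 48.0% had a higher mean in AngII and 22.0% were highest in AngII library 2. Txnip, a gene of resting cells that restrains glucose uptake, had 698, 689 and 730.4 FPKM in AngII libraries, against 539, 671 and 509 FPKM in Control libraries. Its groups did not overlap, and at a log2 fold change of 0.31 ± 0.11 the gene did not pass (limma adjusted p = 0.99989). Klf2, the transcription factor of T cell quiescence and traffic, had 546, 706 and 598 FPKM in AngII libraries, against 768, 924 and 568 FPKM in Control libraries, with a log2 fold change of -0.27 ± 0.19.

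The authors' deposited table of their own test gave the same count for these genes. It held 41 rows that name 39 of the 40 genes and were marked as tested, and 0 of them had a q-value or a p-value below 0.05. The p-values in the authors' deposited table ran from 0.115 for Hmmr to 0.994 for Tk1. Over the whole of the authors' deposited table, 37 of 14720 tested rows had a q-value below 0.05. No direction was taken from it because it does not name its conditions.

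Some levels may hold reads of other genes. Exons of Ccne2, Mcm7, Tk1, Ccna2, Plk1, Ube2c, Cdc20, Kif20a and Nusap1 overlap exons of a gene on the opposite strand in the GENCODE annotation, and whether strand was used in counting is not given in the sources used here. On the same strand, exons overlap for Mcm7 (Mir25 and Mir93), Stmn1 (Gm23634) and Top2a (Gm23451), which counting by strand would not separate. Pseudogene copies are annotated for Ccnb1, Ccnb2, Pcna, Stmn1 and Tyms. The copy of Ccnb2 reached 2.02 FPKM in a library and one of Pcna reached 0.201 FPKM, while the others with a row were at 0.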

How the data were processed

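The deposited library files give FPKM per Ensembl gene, as the authors made them. The authors' deposited table also gives a p-value and a q-value per gene, and its conditions are not named. Per the submitters' processing notes, Trimmomatic 0.32, TopHat2 2.1.1 and Cuffdiff were used with build GRCm38.p3. The annotation release and the scaling by Cuffdiff are not stated there.

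A mean of 1 FPKM or more was required, and genes were tested on log2(FPKM + 1) with limma 3.58.1 in R 4.3.3, with a mean-variance trend and Benjamini-Hochberg adjustment at 0.05. The test was checked on simulated data, with genes drawn independently and changes placed only in genes of higher level. That check did not cover changes as small as those of the cell cycle genes. FPKM values are not counts, so no count model was used. Replicates were 3 mice per group. Each group of roles had the gene of highest mean and of smallest p given in full, with every gene whose groups did not overlap and with Mki67, Top2a, Cdk1 and E2f1. The further cell cycle lists followed the same rule, with more genes of high mean for the D cyclins and the CDK inhibitors. The marker genes named for other cells were not picked by this rule. Genes and lists were chosen with earlier results of these data known. Alternatives changed the pseudocount (0.1 or 5), filter, scaling, variance model and libraries used. Gene overlaps came from GENCODE M21 and promoters from RefSeq.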

Additional observations from a re-analysis of the deposited data

How the results depend on the processing

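No setting called any of the 38 cell cycle genes, including the authors' deposited test, which was added after the data had been seen. Over all genes, 4 calls with all libraries became 7 with no filter, 4 to 9 with a library left out and 37 in the authors' deposited test. Genes of the list with groups that did not overlap numbered 1, against 0 at a mean of at least 5 FPKM, 0 after median-of-ratios scaling and 1 to 5 with a library left out. The shares of all genes tested were 5.8%, 6.0%, 6.5% and 9.8% to 27.7% in the same order. The count of 5 came without AngII replicate 1, where the share was 9.8%. The replicate numbers shared between groups gave no sign of pairing, with correlations of the libraries' deviations of -0.080, -0.023 and -0.035. Libraries of unlike number were not compared, so pairing was not tested. With the replicate number as a block, 3 genes were called over all genes, and no named gene changed its call. The median log2 fold change of the list was 0.08, and it lay between 0.03 and 0.15 in all settings except array weights (-0.06) and the fit without AngII replicate 2 (-0.05). Of 506 values for 32 named genes over 16 settings, 469 kept their direction and their side of the threshold and 37 changed sign. Under array weights the log2 fold changes that changed sign were -0.035 for E2f2, -0.0099 for Mcm7, -0.062 for Ccna2, -0.10 for Birc5, -0.0062 for Bub1b, -0.10 for Ube2c, -0.056 for Top2a, 0.055 for Ccnd3, 0.11 for Ccnd2, -0.017 for Cdkn2c and -0.028 for Mki67. After quantile normalization they were 0.022 for Mcm6 and 0.0015 for H2afz. With each library left out in turn, values that changed sign ran from -0.033 to 0.034 for E2f2, from -0.053 to 0.040 for Mcm6, from -0.051 to 0.31 for Ccna2, from -0.062 to 0.28 for Birc5, from -0.11 to 0.22 for Ube2c, from -0.044 to 0.21 for Top2a, from -0.043 to 0.18 for Mki67, from -0.24 to 0.070 for Ccnd3, from -0.25 to 0.13 for Ccnd2, from -0.017 to 0.15 for Cdkn2c, from -0.029 to 0.069 for E2f4, from -0.29 to 0.082 for Cdkn1a and from -0.12 to 0.0038 for Rpa1. The cause was not tested. With 3 mice per group and intervals that extended a median of 0.34 to either side, small changes in these genes were not detectable. An exact permutation test of 3 against 3 cannot give a p below 0.1.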
